A study of Homo sapiens with 4 samples.

Results

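Centrosomal and golgin coiled-coil genes were compared between RNA bound to the fragile X protein FMRP and the RNA of the starting lysate. Members were the probe sets whose only platform gene symbol is CEP followed by a number, PCNT, PCM1, CNTRL, AKAP9, NIN, CDK5RAP2, GOLGA1 to GOLGA5, GOLGB1, GCC1, GCC2, TRIP11, EEA1 or CCDC88A, B or C. That gave 171 of the 54675 probe sets on the array, and 57 of the 19775 genes with a probe set of their own. The rule reads gene symbols and no measured value, although it was drawn up with earlier results of these data known. Of the 171 probe sets, 104 reached a mean log2 signal of 4.70, the middle value of the whole array, and these represented 53 genes. The other 67 probe sets lay between 1.90 and 5.27 on single arrays and were not tested. They include every probe set of CEP126 and CEP162 and of the noncoding CEP72-DT and CEP83-DT. Of the 53 genes, 52 are protein coding and CEP192P1 is a pseudogene. CEP57L1 and CNTRL passed only through the IP arrays, because their lysate means lay below 4.70.

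The cells were Flp-In T-REx HEK293, a human embryonic kidney line, with a stably integrated transgene for FMRP carrying a Flag and an HA tag. All 4 samples came from cells given doxycycline at 1 µg/ml for 16 h to switch the transgene on, so the lysate arrays carry the induced protein as well. The lysate group held RNA taken before immunoprecipitation (2 arrays), and the IP group held RNA recovered with the anti-FLAG M2 antibody after washes at 300 mM KCl (2 arrays). No mock IP is among these samples, tagged FMRP was made on top of any endogenous protein, and the labels do not say whether replicates came from separate cultures. If they did not, each p-value reflects technical spread alone.

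Large coiled-coil proteins organize the centrosome and the Golgi by acting as long scaffolds or tethers. At the centrosome they hold the pericentriolar material that nucleates microtubules, build and measure the centrioles, and form the appendages from which a cilium grows. Golgins are anchored on Golgi membranes at the end of a long rod and catch transport vesicles, and EEA1 does the same on early endosomes. FMRP is an RNA-binding protein that associates with polyribosomes and with many long mRNAs.

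Across all 13157 genes tested with limma at an adjusted p of at most 0.05, 35.0% were called higher in the IP and 28.8% lower. The median change over all genes was 0.08 on the log2 scale (interquartile range -0.48 to 0.61). Array medians lay between 4.67 and 4.71, so a change describes a gene relative to the rest of the array. With each array centred on its 18 hybridization control probe sets, the median of all genes moved by -0.48, and 24.7% of calls were higher in place of 54.9%. The intermediate filament genes KRT8, KRT18 and VIM lay at 9.67 or above on each array. The leukocyte, hepatocyte, muscle and fibroblast markers PTPRC, ALB, MYH7 and COL1A2 lay at 4.52 or below. CD79A, a B cell marker, reached 6.14. PECAM1, an endothelial marker, reached 5.83 and was called higher (0.53, adjusted p = 0.0175), and its part in the results was not tested. FMR1 itself changed by -0.42 (adjusted p = 0.0261).

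Centrosomal and golgin mRNAs were more often higher than lower in the IP. Of the 53 genes tested, 24 were called higher (all genes 35.0%), 7 were called lower (all genes 28.8%) and 22 did not pass. Their median change was 0.41, with an interquartile range of -0.07 to 1.02, and it was 0.18 without lysate replicate 2 and 0.19 over unique probe sets only. Over unique probe sets 13 of 36 genes were called higher (3360 of all 9977 genes) and 5 lower (2858 of all 9977). Without CEP57L1 and CNTRL, 23 of 51 genes were called higher and 7 lower. Both IP arrays lay above both lysate arrays for 30 of the 53 (45.1% of all genes) and below both for 10 (37.2% of all genes), and the groups overlapped for 13. A rise of at least 2-fold was seen for 14 genes and a fall of at least 2-fold for 2. The shares of all genes with changes of that size were not examined, so these 2 counts have no background. With hybridization control centring the median was -0.06 (all genes -0.40), and 14 members were called higher (15.9% of all genes) and 12 lower (48.5% of all genes). The 14 higher genes and 7 of the 12 lower ones were also called on the deposited scale. Probe set by probe set, 41 of the 104 kept were called higher (31.5% of all 27281 probe sets tested) and 15 lower (28.0%).

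**Figure D1:**
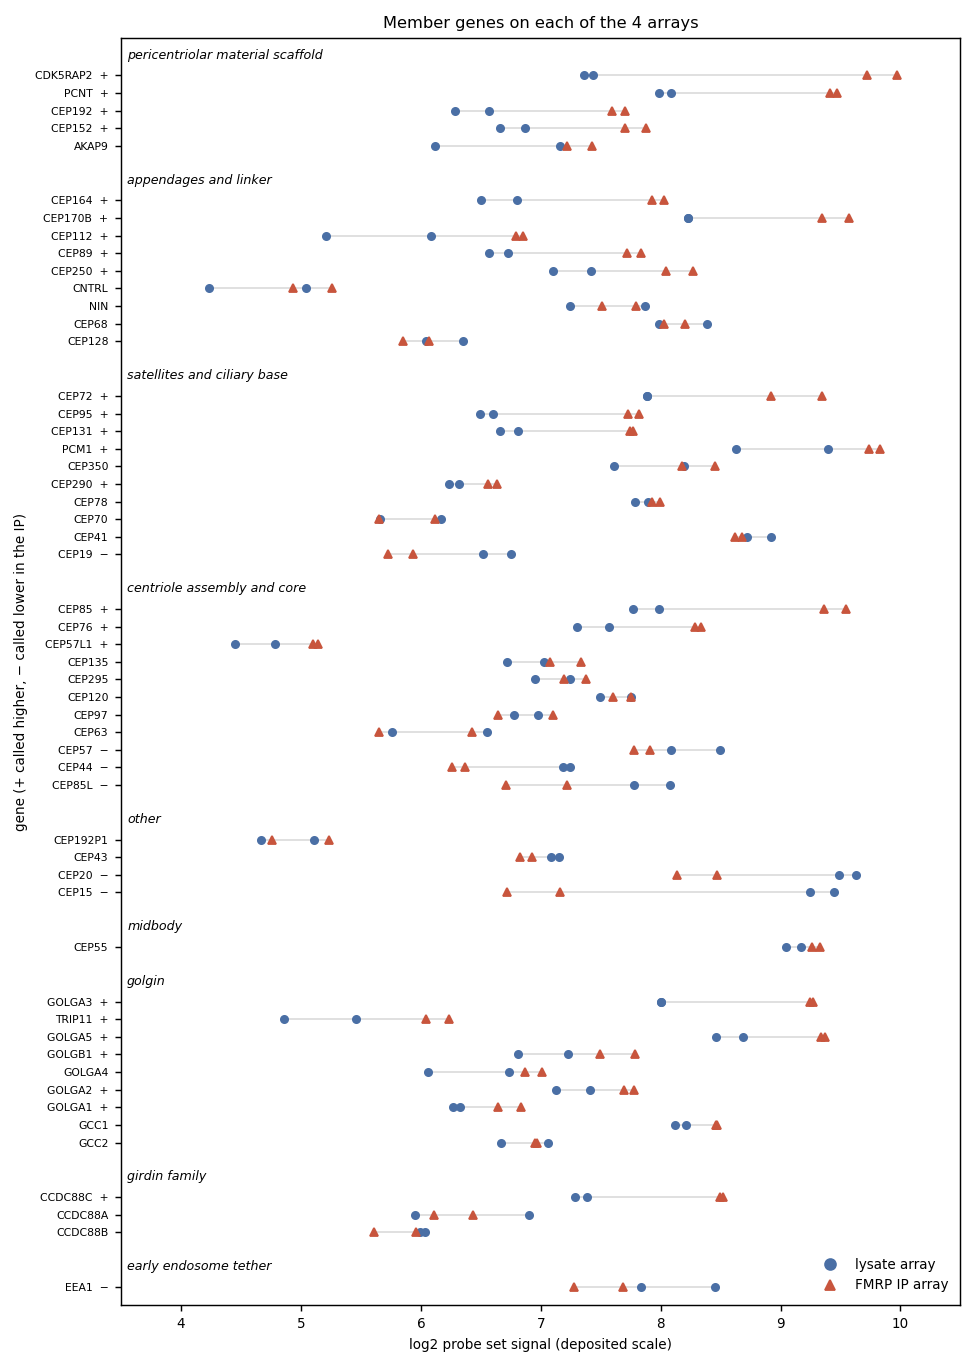
Log2 probe set signal (x axis) of the 53 member genes (y axis) on the 2 lysate arrays (circles) and the 2 FMRP IP arrays (triangles), grouped by role, with a plus for genes called higher and a minus for genes called lower. The triangles of CDK5RAP2 lie more than 2 units to the right of its circles, and those of CEP15 lie more than 2 units to the left.

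Most scaffolds of the pericentriolar material were higher in the IP. Of 5 tested, 4 were called higher (all genes 35.0%) and 1 did not pass, with a median change of 1.22 (all genes 0.08). The same 4 were higher with hybridization control centring (all genes 15.9%), where the median was 0.74 (all genes -0.40). CDK5RAP2 anchors the gamma-tubulin ring complex, the template for new microtubules, in this material. It stood at 7.36 and 7.43 on the lysate arrays and at 9.72 and 9.97 on the IP arrays. The groups were far apart, a 5.46-fold difference (log2 change 2.45 ± 0.13 SE, n = 2 against 2, adjusted p = 3.44e-05), and this was the largest rise among the members. PCNT encodes pericentrin, which binds CDK5RAP2. Its lysate arrays read 7.98 and 8.09 and its IP arrays 9.42 and 9.47, a 2.66-fold difference (adjusted p = 4.98e-05). CEP192 recruits the mitotic kinases to the centrosome and stood at 6.57 and 6.28 against 7.70 and 7.60 (2.33-fold, adjusted p = 1.65e-04). CEP152 brings in PLK4, the kinase that starts centriole duplication. It stood at 6.66 and 6.87 in the lysate and 7.88 and 7.70 in the IP (2.04-fold, adjusted p = 3.19e-04). In each of these 4 genes the gap between the groups exceeded the gap between arrays of a group. AKAP9, a scaffold of both centrosome and Golgi, was the exception. Its IP arrays at 7.43 and 7.22 lay above both lysate arrays, but those were 7.16 and 6.12, and the change of 0.68 did not pass (adjusted p = 0.0759; 95% interval -0.01 to 1.37). Without lysate replicate 1 the AKAP9 change was 1.20 and was called higher, and without IP replicate 2 it was 0.79 and also called. Without lysate replicate 2 it was 0.17 and not called.

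Genes for the appendages of the mother centriole and for the linker between centrioles were called higher or not called. Of 9 tested, 5 were called higher (all genes 35.0%), none was called lower (all genes 28.8%) and 4 did not pass. The median of the 9 was 0.90 (all genes 0.08). CEP164, a distal appendage protein needed to dock the centriole at the membrane, stood at 6.50 and 6.81 in the lysate and 7.92 and 8.03 in the IP (2.50-fold, adjusted p = 1.23e-04). CEP89, also at the distal appendages, stood at 6.57 and 6.73 against 7.84 and 7.72 (2.19-fold, adjusted p = 1.42e-04). CEP170B, a paralog of the subdistal appendage protein CEP170, stood at 8.23 on both lysate arrays and at 9.35 and 9.57 on the IP arrays (2.35-fold, adjusted p = 1.13e-04). The only CEP170B probe set is of a class that can cross-hybridize. In these 3 genes the nearest IP and lysate arrays lay farther apart than the arrays of either group. CEP112 stood at 6.09 and 5.21 in the lysate and 6.79 and 6.85 in the IP. The groups did not overlap (2.26-fold, adjusted p = 0.00429), and the lysate arrays differed by 0.87 from each other. Without lysate replicate 2 the CEP112 change was 0.74, and with hybridization control centring it was 0.70 and did not pass. CEP250, the rootlet-like linker protein C-NAP1, was the fifth higher gene at 0.90. CNTRL (0.46), NIN (0.10), CEP68 (-0.07) and CEP128 (-0.24) did not pass on the deposited scale. NIN encodes ninein, which anchors microtubule minus ends at the subdistal appendages, and CNTRL encodes the mother centriole protein centriolin. CNTRL was called higher at 0.86 without lysate replicate 1 and at 0.62 without IP replicate 2, but was at 0.05 without lysate replicate 2 and 0.29 without IP replicate 1, neither called. With hybridization control centring 4 of the 9 were higher (all genes 15.9%), and CEP68 (-0.55) and CEP128 (-0.72) were called lower (all genes 48.5%).

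Among 10 genes for centriolar satellites and the ciliary base, 5 were called higher (all genes 35.0%) and 1 lower (all genes 28.8%). The median of the 10 was 0.37 (all genes 0.08). CEP72, a satellite protein, stood at 7.89 on both lysate arrays and at 8.92 and 9.35 on the IP arrays (2.38-fold, adjusted p = 2.85e-04). CEP95 stood at 6.50 and 6.60 against 7.73 and 7.82 (2.34-fold, adjusted p = 8.43e-05). CEP131, a satellite protein formerly named AZI1, stood at 6.66 and 6.81 against 7.74 and 7.77 (2.03-fold, adjusted p = 1.93e-04). None of these 3 had overlapping groups. PCM1, the protein around which satellites assemble, was called at 0.77 but stood at 9.40 and 8.63 in the lysate. Without lysate replicate 2 its change was 0.39 and did not pass. CEP290, at the transition zone of the cilium, was called at 0.32 (adjusted p = 0.0421) and did not pass with any 1 of the 4 arrays left out (0.28 to 0.36). CEP19, which recruits a GTPase for cilium formation, was the lower gene of this group. Its lysate arrays read 6.75 and 6.52 and its IP arrays 5.93 and 5.73, a 1.75-fold difference toward the lysate (adjusted p = 0.00128). CEP350, CEP78, CEP70 and CEP41 changed by 0.41, 0.12, -0.03 and -0.17 and did not pass. With hybridization control centring 3 of the 10 were higher (all genes 15.9%) and 2 lower (all genes 48.5%). The median was then -0.11 (all genes -0.40).

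Genes for centriole assembly and the centriole core went in both directions, much as all genes did. Of 11 tested, 3 were called higher (all genes 35.0%) and 3 lower (all genes 28.8%). The median was 0.05 (all genes 0.08). CEP85, which regulates centriole assembly and separation, stood at 7.77 and 7.98 in the lysate and 9.36 and 9.54 in the IP (2.98-fold, adjusted p = 5.35e-05). Its paralog CEP85L went the other way, from 8.08 and 7.78 to 7.22 and 6.71, a 1.95-fold difference toward the lysate (adjusted p = 0.00280). CEP44, a centriole protein, fell from 7.24 and 7.19 to 6.37 and 6.26 (1.87-fold, adjusted p = 3.28e-04). CEP57, which links CEP63 to the pericentriolar material, stood at 8.50 and 8.09 against 7.91 and 7.78. In CEP85L and CEP44 the groups lay more than 0.5 apart. In CEP57 the nearest IP and lysate arrays lay closer together than the 2 lysate arrays, and its change of -0.45 (adjusted p = 0.0385) was -0.24 without lysate replicate 1 and -0.38 without IP replicate 2, neither of which was called. CEP57L1, the paralog of CEP57, was called higher at 0.51, but it is one of the genes that reached the filter only through the IP arrays, and it did not pass without lysate replicate 2 (0.34). CEP76, which limits centriole reduplication, was higher at 0.88. CEP135, CEP295, CEP120, CEP97 and CEP63 ranged from -0.11 to 0.33 and did not pass. CEP135 was called higher at 0.46 without IP replicate 2 and was at 0.18 without lysate replicate 2 and 0.20 without IP replicate 1. With hybridization control centring the median of this group was -0.43 (all genes -0.40). On that scale 1 gene was higher (all genes 15.9%) and 3 were lower (all genes 48.5%).

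The largest falls belonged to CEP genes that the role lists used here did not name, so the counts of the groups above leave them out. CEP15, formerly C3orf14, stood at 9.45 and 9.25 in the lysate and at 7.16 and 6.72 in the IP. The signal was 5.29-fold higher in the lysate (log2 change -2.40 ± 0.17 SE, n = 2 against 2, adjusted p = 3.50e-05). CEP20 encodes FOR20, a small protein needed for cilium formation, and stood at 9.63 and 9.49 against 8.47 and 8.13, or 2.39-fold higher in the lysate (adjusted p = 1.99e-04). CEP43 encodes FOP, a related centriolar protein. By its brightest probe set it changed by -0.24 and did not pass (adjusted p = 0.104). It was called lower at -0.72 with hybridization control centring. The midbody gene CEP55, needed for the last cut of cell division, changed by 0.19 (95% interval -0.09 to 0.47), and CEP192P1 by 0.11.

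Golgins were called higher or not called, and none was called lower. Of 9 tested, 6 were higher (all genes 35.0%), none lower (all genes 28.8%) and 3 did not pass. The median of the 9 was 0.54 (all genes 0.08). Only GOLGA3 was called with hybridization control centring (0.78), where 15.9% of all genes were higher and 48.5% lower. The median of the golgins was then 0.06 (all genes -0.40). GOLGA3 encodes golgin-160, which binds dynein to position the Golgi. It stood at 8.00 on both lysate arrays and at 9.25 and 9.27 on the IP arrays, a 2.39-fold difference (adjusted p = 6.51e-05). TRIP11, which encodes the cis-Golgi tether GMAP-210, stood at 5.46 and 4.86 in the lysate and 6.24 and 6.04 in the IP (change 0.98, adjusted p = 0.00325). The groups were separate in both genes. GOLGA5 (golgin-84) changed by 0.78, GOLGB1 (giantin) by 0.62, GOLGA2 (GM130) by 0.47 and GOLGA1 (golgin-97) by 0.44. Of these, GOLGA5 kept its call with each array left out. GOLGB1 did not pass without lysate replicate 2 (0.41), GOLGA2 not without lysate replicate 1 (0.32) or IP replicate 1 (0.42), and GOLGA1 not without lysate replicate 2 (0.41) or IP replicate 2 (0.35). GOLGA4 (0.54), GCC1 (0.30) and GCC2 (0.10), golgins of the trans-Golgi, did not pass, with 95% intervals of 0.05 to 1.04, 0.03 to 0.57 and -0.26 to 0.45. GOLGA4 was called higher at 0.88 without lysate replicate 1 and at 0.61 without IP replicate 2, and was at 0.20 and not called without lysate replicate 2.

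EEA1, the early endosome tether that binds RAB5, was called lower by its only kept probe set. Its other probe sets, below the filter and not tested, changed by 0.84 and 0.24. The kept one stood at 8.46 and 7.84 in the lysate and at 7.69 and 7.28 in the IP (change -0.66, adjusted p = 0.0308). The groups did not overlap, but the nearest arrays lay closer to each other than arrays of the same group did. The call was lost when lysate replicate 1 was left out (-0.35), and likewise for IP replicate 2 (-0.46). In the girdin family, which regulates trimeric G proteins, CCDC88C (Daple, a Wnt pathway protein) stood at 7.28 and 7.39 in the lysate and at 8.49 and 8.52 in the IP (2.25-fold, adjusted p = 9.39e-05). CCDC88A, girdin itself, changed by -0.15 with a 95% interval of -0.82 to 0.51 by its brightest probe set. Its other kept probe set read 6.47 and 5.90 in the lysate and 5.39 and 5.26 in the IP, was called lower at -0.86 (adjusted p = 0.00790) and differed from the first (adjusted p = 0.0299). CCDC88B changed by -0.23 (-0.57 to 0.11). By its brightest probe set CCDC88A was called lower at -0.63 without lysate replicate 2, and was not called at 0.32 without lysate replicate 1, 0.01 without IP replicate 2 and -0.32 without IP replicate 1. CCDC88B was called lower at -0.40 without IP replicate 2 and at -0.71 with hybridization control centring, and was at -0.05 without IP replicate 1.

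Different probe sets of a gene did not always report the same change. Of 51 pairs of kept probe sets in 30 member genes, 18 pairs in 11 genes differed in their change (limma on the difference per array, adjusted p at most 0.05; all pairs of all genes 35.1%). In 13 of the 18 the probe set with the higher mean signal had the larger change. How often this holds among the differing pairs of all genes was not examined, so whether it is a trait of the members is not known. CEP89 had 6 kept probe sets, with changes of 1.13, 0.74, 0.44, 0.09, -0.01 and -0.17. The probe set at 1.13 differed from 4 of the other 5, among them the 2 with a negative change (differences 1.30 and 1.14, adjusted p = 0.00270 and 0.00583). Only the 3 largest of these 6 changes were called. CEP350, a centrosomal partner of FOP, held the other pair that differed with opposite signs. Its brightest probe set stood at 8.20 and 7.61 against 8.45 and 8.18 (0.41), and another at 6.57 and 6.21 against 6.29 and 5.80 (-0.35; adjusted p of the difference 0.0157), while neither change was called alone. Without lysate replicate 1 or without IP replicate 2 the first was called higher, at 0.71 and 0.55. It was not called at 0.12 without lysate replicate 2 or at -0.06 with hybridization control centring.

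**Figure D2:**
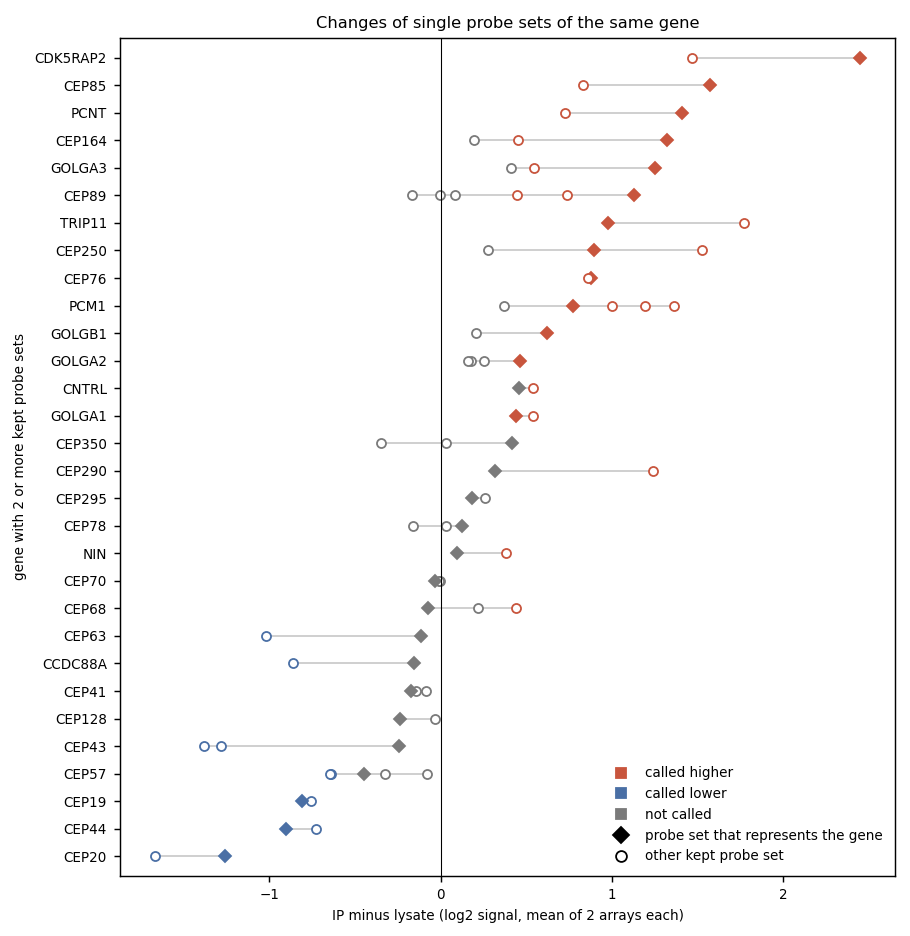
IP minus lysate in log2 signal (x axis, mean of 2 arrays each) of every kept probe set of the 30 member genes with 2 or more (y axis), coloured by the call in the fit of all probe sets. Diamonds mark the probe set that represents the gene; CEP89 spans -0.17 to 1.13, and all 3 CEP43 probe sets lie below 0.

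In CEP43, CCDC88A, CEP63, CEP68, CNTRL and NIN the probe set that represents the gene was not called and another kept one was, so the choice of probe set decided the call for these 6 genes. CEP63 was called lower at -1.02 by its second probe set, and CEP68, CNTRL and NIN were called higher at 0.44, 0.54 and 0.38 by another. Of the 104 kept probe sets 6 reached the filter only through the IP arrays and 2 only through the lysate arrays. These are 2 of CNTRL and 1 each of CEP57L1, CEP89, PCNT and TRIP11, and for the lysate 1 each of CEP19 and CEP63, and their direction is no separate support. The brightest CEP43 probe set read 7.08 and 7.15 in the lysate and 6.93 and 6.83 in the IP. The other 2 read 7.08 and 7.11 against 5.96 and 5.47, and 7.02 and 7.07 against 6.10 and 5.42. These fell by 1.38 and 1.28 on the log2 scale and both differed from the first (adjusted p = 0.00686 and 0.0152). The first belongs to a class of probe sets that can cross-hybridize, and whether it reads another RNA was not tested. In all, 4 probe sets that represent a gene are of this class, those of CEP43, CEP44, CEP97 and CEP170B. The other kept CEP44 probe set is of this class as well, and so are the PCM1 ones at 1.36 and 1.19. For these too, reading of another RNA was not tested. CDK5RAP2 rose by both probe sets, at 2.45 and 1.47. PCNT changed by 1.41 and 0.72, the second at a probe set whose lysate arrays read 4.50 and 4.47, below the filter. Both pairs differed in size (adjusted p = 0.00497 and 0.0288). CEP164 ranged from 0.20 to 1.32, GOLGA3 from 0.41 to 1.25 and CEP250 from 0.28 to 1.53. PCM1 had 5 kept probe sets between 0.37 and 1.36, of which 4 were called higher. TRIP11 changed by 1.77 at a second probe set that rose from 3.94 and 4.03, and CEP290 by 1.24 at a second one whose lysate arrays read 5.37 and 4.08. CEP20, CEP44 and CEP19 fell at each of their 2 kept probe sets, at -1.67 and -1.26, -0.90 and -0.73, and -0.81 and -0.76. In CEP57 2 of the 5 kept probe sets were called lower, at -0.65 and -0.64. The probe set that represents the gene is not one of them, since at -0.45 it has an adjusted p of 0.0385 among genes and 0.0519 among probe sets. In 26 of the 30 genes (86.7%) the changes of all kept probe sets had 1 sign, against 70.3% of all 6246 genes with 2 or more. Of the 26, 13 genes were called higher and 4 lower, and the shares called among all genes of 1 sign were not examined.

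The number in a CEP symbol is a nominal protein mass in kilodaltons for most of these genes, a property that the choice of members did not use. This comparison was added after the values were seen. Of the 9 CEP genes with a number under 60, 5 were called lower (all genes 28.8%) and 1 higher (all genes 35.0%), with a median change of -0.45. Of 12 from 60 to under 120, 6 were higher and 1 lower (median 0.50), and of 12 at 120 or more, 7 were higher and none lower (median 0.66). Centred on hybridization controls, 7 of the 9 were lower, 4 of the next 12 higher and 2 lower, and 6 of the last 12 higher and 1, CEP128, lower, against 15.9% of all genes higher and 48.5% lower. Across the 33 CEP genes Spearman's rho was 0.60 and Pearson's r was 0.41. These values are across genes, which share the same 4 arrays and are not replicates. Without CEP295 and CEP350, the 2 numbers farthest from the median, they were 0.65 and 0.53. Without CEP57L1, CEP85L and CEP170B, whose numbers are those of a paralog, they were 0.63 and 0.41. With 1 unique probe set per gene rho was 0.45. Transcript lengths and protein sequences were not used here, so length itself was not tested.

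**Figure D3:**
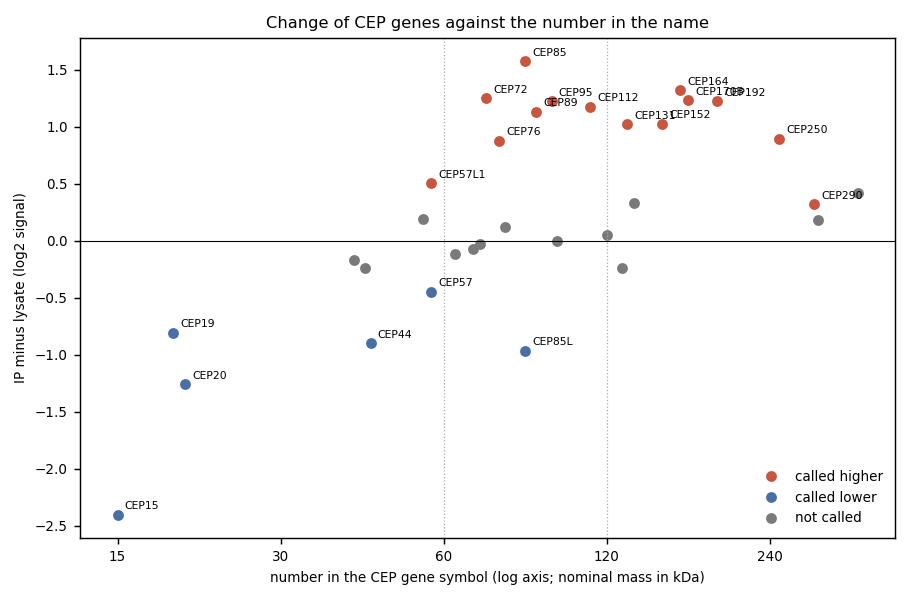
IP minus lysate in log2 signal (y axis) of 33 CEP genes against the number in the symbol (x axis, log scale), coloured by call, with dotted lines at 60 and 120. CEP15, CEP20 and CEP19 lie at the lower left, and no gene at 120 or more was called lower on the deposited scale plotted here.

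Several member genes read differently on the 2 lysate arrays. The gap between lysate replicates 1 and 2 was at least 0.5 for 12 of the 53 genes, and for 3.30% of all genes tested. Lysate replicate 1 was the higher array in each of the 12. AKAP9 had the widest gap at 1.04, then CCDC88A at 0.95, CEP112 at 0.87, CNTRL at 0.81, CEP63 at 0.79 and PCM1 at 0.77. GOLGA4, NIN, EEA1, TRIP11, CEP350 and CEP70 had gaps from 0.51 to 0.68. The median size of the gap was 0.27 in the members and 0.14 in all genes. Between the IP replicates a gap of at least 0.5 was seen for CEP63 and CEP85L alone, against 4.78% of all genes, and the median size was 0.18 against 0.13. Replicate 1 was nonetheless the higher array in the IP as well for 11 of the 12 genes with a wide lysate gap, such as CEP70 (0.46) and EEA1 (0.41). Over all 53 members lysate replicate 1 was the higher for 37 (45.5% of all genes) and IP replicate 1 for 35 (48.5% of all genes). By probe set, 19 of the 104 kept had a lysate gap of at least 0.5, each with lysate replicate 1 higher, against 4.12% of all probe sets tested. Of the 31 called member genes, 23 kept their call with each of the 4 arrays left out in turn, 18 higher and 5 lower. The 8 others are PCM1, GOLGB1, CEP57L1, GOLGA2, GOLGA1, CEP290, CEP57 and EEA1, and 7 of the 22 genes that did not pass were called with an array left out. The change of 9 genes turned sign with an array left out, and none of those turned values was called. The part of the lysate gap in these calls beyond leaving out arrays was not tested. How often calls over all genes were kept or gained with an array left out was not examined, so the member counts have no background.

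**Figure D4:**
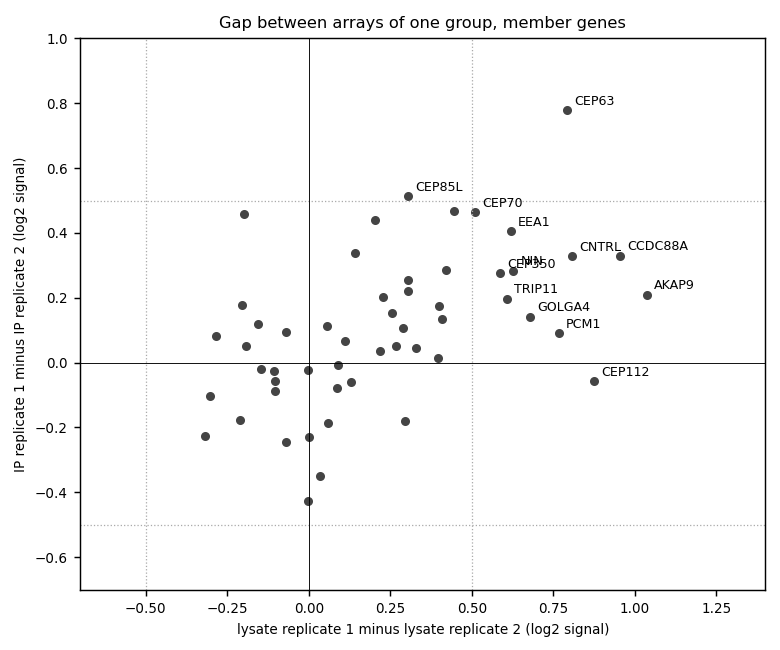
Gap between the 2 lysate arrays (x axis, replicate 1 minus replicate 2, log2 signal) against the gap between the 2 IP arrays (y axis) for the 53 member genes, with dotted lines at a gap of 0.5. The 12 genes beyond 0.5 on the x axis all lie to the right, and CEP63 is wide on both axes.

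Genes of the same structures that the name rule does not take moved in both directions. Of 39 listed centrosome genes 37 were tested, with a median change of 0.60, and 19 were called higher (all genes 35.0%) and 9 lower (all genes 28.8%). Of 32 listed genes for Golgi and endosome tethering 30 were tested, with a median change of 0.32, and 15 were called higher and 10 lower. Centred on hybridization controls, the centrosome genes split into 12 higher and 13 lower and the Golgi and endosome genes into 9 and 12, where all genes had 15.9% higher and 48.5% lower. TUBGCP5, a subunit of the gamma-tubulin ring complex, stood at 5.28 and 5.83 in the lysate and 7.79 and 7.96 in the IP (4.98-fold, adjusted p = 4.67e-05). COG7, of the COG tethering complex, was 3.97-fold higher, and CROCC, the ciliary rootlet protein rootletin, 3.04-fold higher. ARL1, the small GTPase that recruits golgins such as GOLGA1 and GOLGA4 to the trans-Golgi, stood at 9.20 and 8.97 in the lysate and 7.44 and 7.11 in the IP. Its signal was 3.51-fold higher in the lysate (adjusted p = 5.27e-05). HOOK3, which couples cargo to dynein, and GORASP2, the Golgi stacking protein GRASP55, were 2.67-fold and 2.48-fold higher in the lysate. A lysate gap of at least 0.5 was seen for 6 of these 67 genes, 5 of them with lysate replicate 1 higher.

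**Figure D5:**
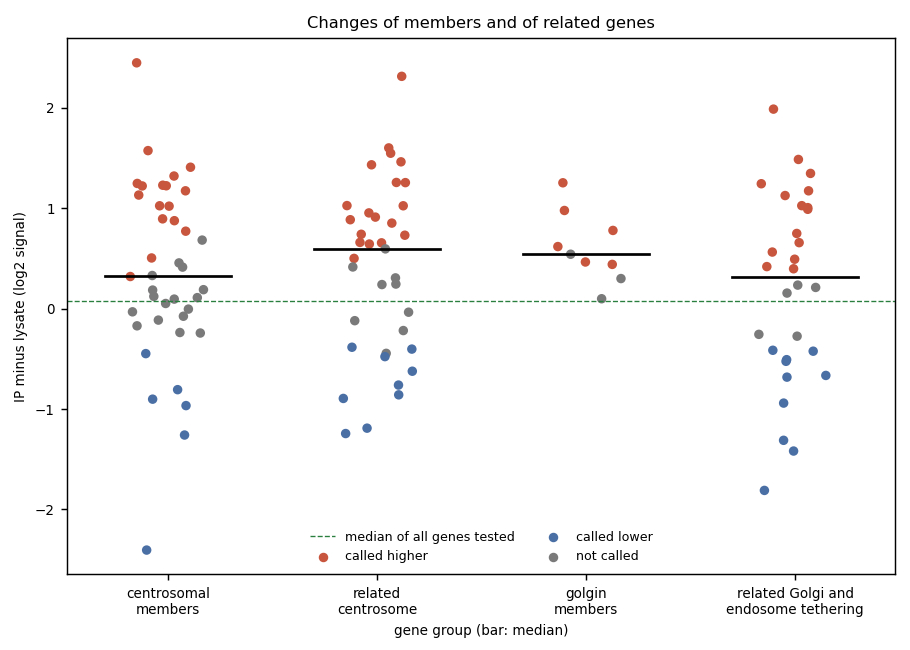
IP minus lysate in log2 signal (y axis) of centrosomal members, related centrosome genes, golgin members, and related Golgi and endosome tethering genes (x axis), with a bar at each median and a dashed line at the median of all genes tested. Golgin members are the only group of the 4 with no gene called lower.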

How the data were processed

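RNA from 2 lysates and 2 FMRP immunoprecipitates was hybridized, 1 array per sample, to Affymetrix Human Genome U133 Plus 2.0 arrays after biotin labelling of 2 µg of RNA, per the labels' protocols. The authors deposited 1 value per probe set and array, taken here as log2 because of the range of values. Background correction, summary method, normalization and batches are not given in the sources consulted, and no detection calls were used. The number of arrays limits the precision.

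Of 54675 probe sets 62 are controls, and 41091 of the others have 1 symbol in the platform annotation, 1801 several and 11721 none. Kept probe sets had a mean signal on the 4 arrays of 4.70 or more. A gene was represented by its kept probe set with the highest mean, which favours probe sets that are high in either group. The difference between IP and lysate was tested in R 4.3.3 (limma 3.58.1) over 13157 genes, over 27281 probe sets, and over 10359 differences between probe sets of a gene, each with Benjamini-Hochberg adjustment over the whole table (2 residual and 5.51 prior degrees of freedom for genes). The fits were tested on simulated data. All 53 member genes matched the GRCh38.p14 RefSeq table by Entrez number with the same symbol. Values by array are given for called members with a change of at least 1, for members called lower, and for those with probe sets that differed with opposite signs; those of AKAP9, PCM1, TRIP11, CEP43, CCDC88A and second probe sets of PCNT and CEP290 were added after their values were seen, and other genes are named for completeness. Of the related genes the 3 largest rises and falls are named. The members, roles and lists were chosen with earlier results of these data known. Alternatives covered normalization, filter, probe set, replicate block, spread, threshold and left-out arrays. Protein length was planned and not run, as no protein sequences were used here. Plots used matplotlib 3.10.9 with pandas 2.3.3.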

Additional observations from a re-analysis of the deposited data

How the results depend on the processing

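With hybridization control centring 14 member genes were higher (all genes 15.9%) and 12 lower (all genes 48.5%). Their median change was -0.0645 (all genes -0.40). On that scale 19 member probe sets were higher and 31 lower, with the shares of all probe sets not given here. Related genes split into 12 higher and 13 lower for the centrosome and 9 and 12 for the Golgi. With unique probe sets only, 13 of 36 member genes were higher (3360 of all 9977 genes) and 5 lower (2858 of all 9977). The members' median was then 0.19 (all genes 0.07). At that setting 12 related centrosome genes were higher and 6 related Golgi genes lower, with the numbers tested not given here. With the mean of each gene's kept probe sets 6 related Golgi genes were lower (3877 of all 13157 genes). Requiring 2 or more kept probe sets of one sign, a choice made once the values were known, left 13 member genes higher and 4 lower. The shares called among all genes under that requirement were not examined, so these 2 counts have no background. For pairs of probe sets, the shares over all genes are not given at the settings that follow. Member pairs that differed numbered 29 without the filter, 11 at a mean of at least 6 and 7 at an adjusted p of at most 0.01. With an array left out they numbered 11 to 15, 11 being without lysate replicate 2, and the members' median change ranged from 0.18 to 0.47, lowest without that same lysate array. For the 22 genes whose values by array are given under the naming rule, 264 of 277 alternative values kept direction and side of the threshold, 9 lost the call, 3 gained it, and CEP350, not called in either case, turned to -0.0645 with hybridization control centring. Those that lost it belong to EEA1, CEP57 and CEP112, and those that gained it to CEP350. Most of the 22 genes were chosen for a call, and the replicate block and stricter threshold cannot alter the size of a change. Agreement was thus largely set in advance and is no measure of robustness. Replicate numbers pair nothing by the labels (correlation of same-numbered deviations across all genes tested 0.10, 2 pairs). It was not computed for the members alone. There, replicate 1 was the higher IP array for 11 of the 12 genes with a wide lysate gap, which it exceeded in lysate too. With the replicate number as a block 29 member genes were higher and 7 lower, and of all 13157 genes 4730 were higher and 3868 lower. AKAP9, GOLGA4, CNTRL, CEP350 and CEP135 were then called in addition. The planned comparison with protein length was not run. Low probe sets have no known floor, and with 2 arrays per group small changes cannot be resolved: the 95% interval of the members that did not pass was 0.73 wide at the median.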

Other observations

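Among the related genes, 2 complexes were chosen after their values were seen. The 5 TUBGCP genes of the gamma-tubulin ring complex, TUBGCP2 to TUBGCP6, were called higher in the IP (all genes 35.0%). They changed by 1.26, 0.91, 0.74, 2.32 and 1.55. With single arrays left out they still rose, least of all TUBGCP4 without lysate replicate 1 (0.66). With hybridization control centring TUBGCP4 (0.26) did not pass. Their other kept probe sets ranged from 1.98 for TUBGCP5 to -1.21 for TUBGCP3, which changed in opposite directions at its 2 probe sets. TUBG1, the gamma-tubulin that these proteins hold, was lower at -0.62, and NEDD1, of the same centrosome list, was lower at -0.40 (adjusted p = 0.0426). Of the 8 subunits of the COG complex, which tethers vesicles within the Golgi, 5 were higher (all genes 35.0%) and 2 lower (all genes 28.8%). COG7 (1.99), COG4 (1.49) and COG1 (1.17) were higher under both scalings, COG8 (0.49) and COG2 (0.40) did not pass with hybridization control centring (0.01 and -0.08), and COG5 (-0.94) and COG6 (-0.41) were lower. COG2 did not pass without lysate replicate 1 or IP replicate 2, COG8 not without lysate replicate 1 or IP replicate 1, and COG6 not without lysate replicate 2 or IP replicate 2. Other COG5 probe sets changed by 0.11 and -0.03.

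CEP170, a subdistal appendage gene, has only probe sets that the annotation shares with its pseudogene CEP170P1, so it is not among the members. The 3 shared probe sets changed by 0.10, -0.15 and -0.65, and the last was called lower (adjusted p = 0.00804 among probe sets). Its lysate arrays read 8.64 and 8.42 and its IP arrays 8.01 and 7.75. Neither RNA can be told apart by these probe sets. The lone probe set of each divergent noncoding neighbour of CEP72 and CEP83 lay between 1.90 and 4.47 on all arrays.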
